A study of Mus musculus with 18 samples.

Results

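The genes described here code for the testis-specific serine kinases, their substrate, and a calcium-dependent kinase and phosphatase subunits that work beside them in late germ cells. They are Tssk1, Tssk2, Tssk3, Tssk4, Tssk6, Tsks, Camk4, Ppp3r2, Ppp3cc and Ppp1cc, chosen by name through their NCBI gene numbers, which makes 10 of the 22657 genes in the table of values. All 10 were found, and all 10 had at least 1 FPKM in at least 3 samples, which put them among the 15790 genes tested. FPKM is the number of fragments of a gene, scaled by gene length and by the fragments of the sample.

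The samples were whole testes of ICR mice kept for 48 h in DMEM/F12 with serum (FBS at 10%), and RNA-seq was made from 18 of them in 6 groups of 3. A0, A10 and A50 were testes of mice that got no busulfan, cultured with 0, 10 or 50 μg/mL alginate oligosaccharides (AOS), which are short sugar chains cut from the alginate of brown algae. The same 3 AOS concentrations were used in B0, BA10 and BA50, whose testes came from mice injected at 3 weeks of age with 40 μg of busulfan per g body weight and were taken 2 weeks later. Busulfan alkylates DNA and is toxic to germ cells that divide, and the mice without busulfan were of the same age. The study's methods give 6 testes per treatment and 3 repeats, so a sample may pool animals, and nothing used here says whether the samples of a group were separate cultures. P-values therefore measure the spread between these samples, which may be technical. AOS was in the medium for 48 h only, after the drug had acted in the animal.

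Testis-specific serine kinases are made after meiosis, in round and elongating spermatids, and are needed there for shaping the sperm head and tail. TSSK1 and TSSK2 bind and phosphorylate TSKS, TSSK6 is needed for packing sperm chromatin and for fertilization, and TSSK4 acts on a protein of the outer dense fibers. CAMK4 is a kinase switched on by calcium and calmodulin. PPP3CC and PPP3R2 are the catalytic and the regulatory subunit of sperm calcineurin, the calcium-dependent phosphatase that lets the sperm tail bend, and PPP1CC is the catalytic subunit of protein phosphatase 1 (PP1), whose gamma-2 form is the main PP1 of sperm. Ppp3ca, Ppp3cb, Ppp3r1, Ppp1ca and Ppp1cb are widely used isoforms of the same subunits. Values of bulk tissue do not show whether the RNA of Ppp3cc and Ppp1cc came from germ cells alone.

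In the GENCODE annotation of GRCm38, Tssk1 lies at chr16:17894223-17897922 and Tssk2 at chr16:17898637-17900024, both on the plus strand, each with 1 exon, and 714 bases apart. Tssk6 has 1 exon too, at chr8:69902184-69903518 on the plus strand. Tssk3 lies at chr4:129489014-129491022 on the minus strand with 2 exons. Tssk4 lies at chr14:55650184-55652539 and Tsks at chr7:44943204-44958035, both on the plus strand. Ppp3r2 lies at chr4:49678747-49682024 on the minus strand within Grin3a, a receptor gene on the same strand with no exon in common and 0.04 to 0.18 FPKM in these samples. Ppp3cc lies at chr14:70217865-70289471 on the minus strand and Ppp1cc at chr5:122158278-122175273 on the plus strand.

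The sequences of Tssk1 and Tssk2 bear on how far their values can be told apart. The longest run that both genes share is 113 bases of coding sequence, on the plus strand of GRCm38 at chr16:17894723-17894835 in Tssk1 and chr16:17899105-17899217 in Tssk2. It is the same letter for letter, so it is printed under each name. Capitals mark the codons of 2 motifs of protein kinases, that of the catalytic loop and that which holds the magnesium ion.
Tssk1: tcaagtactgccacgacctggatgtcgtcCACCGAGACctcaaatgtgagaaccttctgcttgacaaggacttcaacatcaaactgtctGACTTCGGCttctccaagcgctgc
Tssk2: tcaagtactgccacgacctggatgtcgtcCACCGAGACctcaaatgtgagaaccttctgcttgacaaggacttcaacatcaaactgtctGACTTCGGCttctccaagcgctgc
The coding sequences are 1095 bases in Tssk1 and 1074 in Tssk2. Of all stretches of 50 bases in their transcripts, 125 were common to both, which was 3.42% of those of Tssk1 and 9.34% of those of Tssk2. Reads from these stretches could be counted for either gene.

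The stretches just before the starts of Tssk1, Tssk2 and Tssk6 are shown because they held letters like part of TGACGTCA. Factors of the CREM family, which act on genes of spermatids, bind sites of that kind. RefSeq promoter sequences of GRCm38.p6 were at hand for 8 of the 10 genes, not for Camk4 and Ppp3cc. The 250 bases before the start were searched on both strands for TGACGTCA, found in 1.55% of 32851 promoters, for its first 5 letters TGACG, found in 17.8%, and for TGACTTCA, found in 1.31%. TGACG is part of TGACGTCA, and TGACTTCA was added after the sequences had been seen. Each 30-base window is on the plus strand, and capitals mark the matched letters, with TGAAGTCA as TGACTTCA on the other strand.
Tssk1, chr16:17894148-17894177: tcctttgTGACTTCAcccacTGAAGTCAcc
Tssk2, chr16:17898572-17898601: agctttaTGACTTCAttcgctggtcacttg
Tssk6, chr8:69902104-69902133: ggccgagTGACGcccgcagtcacttcacaa
Tssk1 held TGACTTCA once on each strand, Tssk2 held it once, and Tssk6 held TGACG once. No other match was found in the 8 promoters, none of which held TGACGTCA in this window. The 150 bases before the start overlapped exons of Dgcr2 for Tssk1 and Tssk2 and of Ndufa13 for Tssk6. For Tssk3, Tsks and Ppp3r2 they overlapped GENCODE exons of the gene itself, since the RefSeq and GENCODE starts differ. These are matches of letters and not measured binding, and no link to the levels of the genes was tested.

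Summed over genes, FPKM came to 463969 to 511274 per sample, and 14291 to 15040 genes had at least 1 FPKM. The number of reads behind the values is unknown, so no counting interval is given. Pearson's r across genes between samples of 1 group was 0.962 to 0.993, and the low values belonged to A10 sample 3. Of the 8 spermatocyte markers, 7 were called lower with busulfan in each of the 3 comparisons at matched AOS, with a list median of -2.75 on the log2 scale in B0 against A0. None of the 8 spermatid markers was called in those comparisons. Markers of Sertoli, Leydig and myoid cells were present in every group. Of these, Gata4, Inha and Star were called higher in BA10 against A10 and for the mean of the 3 busulfan changes. Gata4 was called higher in BA50 against A50, and none was called in B0 against A0. Among all genes tested, 18.9% were called in BA10 against A10, 19.9% in BA50 against A50 and 38.1% for the mean, in either direction. Of the 8 spermatogonium markers, 4 were called lower in B0 against A0 and in BA10 against A10. In BA50 against A50, 5 were called lower and 1 higher. Among them, Stra8 was 14.2 to 35.4 FPKM in samples without busulfan and 0 to 0.12 FPKM with it. Sall4 was 0.93 to 2.33 FPKM without and 0 to 0.02 FPKM with busulfan. Both were at 0 in some busulfan samples, but no marker of the 9 lists was listed at 0 in a whole group. The B0 group also stood apart in markers that are not of the germ line, with all 6 fat cell markers and 3 of 4 simple epithelium markers called higher than in A0. The summed level of the fat cell markers was 195.7 to 804.2 FPKM in B0 against 42.4 to 137.6 in the other groups. What these differences contribute to the values below was not tested.

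The levels of the 10 genes differed widely. Ppp1cc had the highest mean over the 18 samples, 345 FPKM, which put it at percentile 98.8 of the genes tested. Tssk2 (84.5 FPKM), Tssk1 (68.1 FPKM), Ppp3cc (61.2 FPKM), Ppp3r2 (52.0 FPKM) and Tsks (45.6 FPKM) followed. Tssk4 had a mean of 37.3 FPKM, Tssk3 of 27.5 FPKM and Tssk6 of 22.1 FPKM. Camk4 stood far below the others at 1.06 FPKM, percentile 6.19, where the pseudocount of 1 FPKM makes a fold change look smaller than it is. Tssk5, a further kinase of the family, had group means of only 1.73 to 3.70 FPKM.

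**Figure D1:**
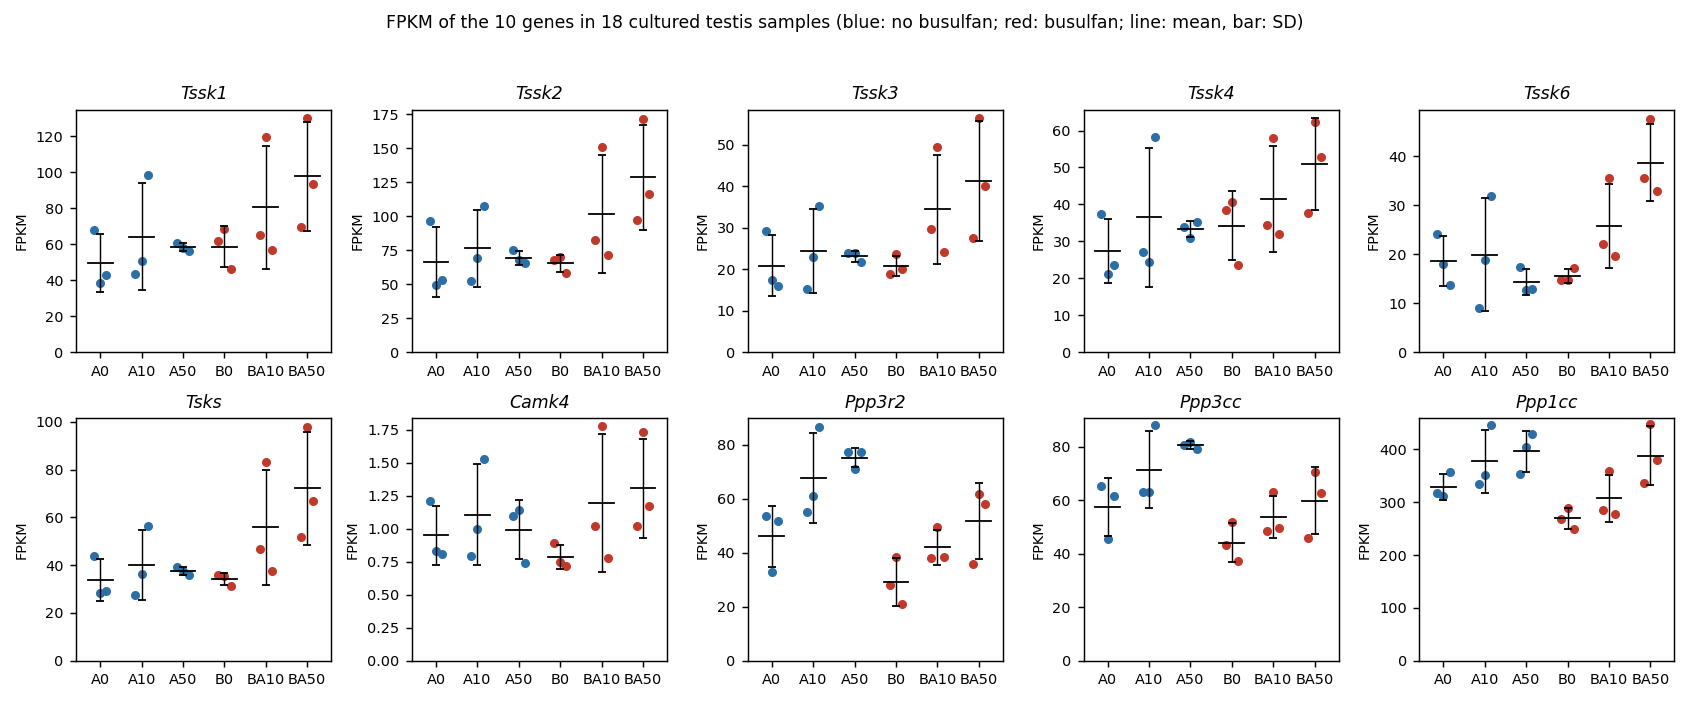
FPKM (vertical axis, from 0) of each of the 10 genes in the 6 groups (horizontal axis), with 1 point per sample, a line at the group mean and a bar for the SD (n = 3). By their means, the kinases and Tsks were highest in BA50, while Ppp3r2 and Ppp3cc were highest in A50 and lowest in B0.

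Tssk1 and Tssk2 code for the kinases that act on TSKS. Tssk1 was measured at 67.8, 38.2 and 42.7 FPKM in A0 and at 61.6, 68.2 and 46.1 FPKM in B0. In A50 it was 60.7, 57.7 and 56.4 FPKM, and in BA50 it was 69.5, 129.9 and 93.4 FPKM. A0 and B0 overlapped, while every BA50 sample lay above every A50 sample. Tssk2 was 96.0, 49.6 and 53.0 FPKM in A0 and 68.0, 69.6 and 58.1 FPKM in B0. It was 75.2, 67.4 and 65.7 FPKM in A50 and 97.4, 171.7 and 116.3 FPKM in BA50, again without overlap. With 10 μg/mL AOS both genes had 1 high sample on each side of the comparison. Tssk1 was 43.4, 50.5 and 98.3 FPKM in A10 and 65.3, 119.5 and 56.7 FPKM in BA10. Tssk2 was 52.5, 69.0 and 107.1 FPKM in A10 and 82.4, 150.9 and 71.4 FPKM in BA10.

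The ratio of the 2 neighbours, Tssk2 over Tssk1, had the same mean without and with busulfan, 1.24 ± 0.10 and 1.24 ± 0.11 (SD, n = 9 each), but this joins groups that differed in opposite directions. It was 1.32 ± 0.09 in A0 and 1.13 ± 0.12 in B0, and 1.19 ± 0.042 in A50 and 1.32 ± 0.079 in BA50 (SD, n = 3). Tsks, whose protein anchors these kinases near the base of the growing tail, was 0.530 ± 0.032 (SD, n = 9) of Tssk2 without busulfan and 0.544 ± 0.022 (SD, n = 9) with busulfan. These ratios were not tested.

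Tsks was 44.0, 28.2 and 29.1 FPKM in A0, 36.0, 35.5 and 31.3 FPKM in B0, 39.1, 37.6 and 35.8 FPKM in A50 and 51.6, 97.7 and 66.9 FPKM in BA50. The B0 samples fell inside the range of A0, and the BA50 samples lay above all of A50 and of B0. In A10 it was 27.5, 36.3 and 56.2 FPKM, and in BA10 it was 46.8, 83.1 and 37.7 FPKM.

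Tssk6, the kinase needed for sperm chromatin, had the largest change of the 10 genes in the comparison of BA50 with A50. It was 17.4, 12.7 and 12.9 FPKM in A50 and 35.6, 47.5 and 32.8 FPKM in BA50, so that the groups lay far apart. In A0 it was 24.0, 17.96 and 13.7 FPKM and in B0 14.8, 14.7 and 17.2 FPKM, which overlapped. The A10 samples were 8.99, 18.8 and 31.9 FPKM and the BA10 samples 22.0, 35.6 and 19.6 FPKM. Ordered by mean, the groups ran from A50 (14.3 ± 2.68 FPKM), B0 (15.6 ± 1.45), A0 (18.6 ± 5.16), A10 (19.9 ± 11.5) and BA10 (25.7 ± 8.63) to BA50 (38.6 ± 7.83, SD, n = 3 each), where each group overlapped its neighbours in the order. BA50 alone lay above A50, B0 and A0 without overlap. The exons of Tssk6 share 375 of their 1335 bases, 28.1%, with Ndufa13, a mitochondrial subunit gene on the opposite strand, and the sources do not say whether counting used the strand. Ndufa13 was 61.4, 73.7 and 78.0 FPKM in A50 and 93.0, 90.3 and 86.2 FPKM in BA50, and was itself called higher there (log2 change 0.34, limma adjusted p = 0.0178). The part of Ndufa13 reads in the Tssk6 values was not tested.

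Tssk3, a kinase needed for male fertility, was 23.9, 23.8 and 21.6 FPKM in A50 and 27.6, 56.4 and 40.1 FPKM in BA50. Tssk4 was 34.0, 31.0 and 35.3 FPKM in A50 and 37.6, 62.3 and 52.8 FPKM in BA50. Neither gene's groups overlapped, although for both the lowest BA50 sample came close to the highest A50 sample. Over all 18 samples Tssk3 ran from 15.2 to 56.4 FPKM and Tssk4 from 21.2 to 62.3 FPKM.

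For the test across genes, limma was fitted on log2(FPKM + 1) of the 18 samples, and genes were called at a Benjamini-Hochberg adjusted p under 0.05. In B0 against A0, 0 of the 10 genes were called, where 13.8% of the genes tested were. An unadjusted p under 0.05 was found for 1 of the 10, and for 24.9% of all genes. In BA10 against A10, 0 were called against 18.9% of all genes, and 1 had an unadjusted p under 0.05, where 32.9% of all genes did. In BA50 against A50, 1 was called higher, where 3.7% of all genes were, and 0 were called lower, where 16.2% were. That gene was Tssk6, with a log2 change of 1.37 (SE 0.34, adjusted p = 0.00961), and its adjusted p stayed between 0.00391 and 0.0408 in the alternative fits. Tsks had 0.88 (SE 0.30, adjusted p = 0.0515) and Tssk2 had 0.84 (SE 0.32, adjusted p = 0.0782), which missed the limit. Tsks passed it without BA50 sample 1 (adjusted p = 0.0318), in a fit that called 16.5% of all genes.

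All 6 of the TSSK genes and Tsks lay above A50 without overlap in BA50, and 2 genes, Ppp3r2 and Ppp3cc, lay below without overlap. Among all genes tested, 16% lay above and 25.7% below without overlap. The changes of the 6 genes in BA50 against A50 had a median of 0.80 on the log2 scale, against -0.01 over all genes tested. In BA10 against A10 the median of the 6 was 0.42, and all 6 changes were positive. In B0 against A0 the changes of the 6 ran from -0.21 to 0.31 with a median of 0.04, against -0.04 over all genes tested.

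The mean of the 3 busulfan changes used all 18 samples. By this measure Tssk6 (log2 change 0.54, SE 0.20, adjusted p = 0.0412) and Tsks (0.46, SE 0.17, adjusted p = 0.048) were called higher with busulfan. Ppp3r2 (-0.63, SE 0.15, adjusted p = 0.00343) and Ppp3cc (-0.40, SE 0.11, adjusted p = 0.00845) were called lower. That made 4 of 10, where 13.3% of all genes were called higher and 24.8% lower, 38.1% in both directions. The share is close to the background, so the count itself sets these genes apart from no others. Tssk1 (0.43, adjusted p = 0.0901), Tssk2 (0.42, adjusted p = 0.0802), Tssk3 (0.43, adjusted p = 0.0817) and Tssk4 (0.37, adjusted p = 0.137) had changes of like size that missed the limit. The calls of Tssk6 and Tsks rested on narrow margins. Leaving out 1 library lost the call of Tssk6 for 13 of the 18 libraries (adjusted p = 0.0508 to 0.0855) and that of Tsks for 14 of the 18 (adjusted p = 0.0561 to 0.0901). Tssk6 kept its call without A0 sample 1, A10 sample 3, A50 sample 1, BA10 sample 3 or BA50 sample 3, and Tsks without A0 sample 1, A10 sample 3, BA10 sample 3 or BA50 sample 1. Without A10 sample 3, Tssk1, Tssk2, Tssk3 and Tssk4 were called higher as well (adjusted p = 0.0213 to 0.031, in a fit that called 40.7% of all genes). Tssk2 and Tssk3 were called also without A0 sample 1 (adjusted p = 0.0297 and 0.0411, with 34.8% of all genes called). Tssk3 was called without BA50 sample 1 (adjusted p = 0.0403, with 35.9% of all genes called). With the replicate number as a block neither Tssk6 nor Tsks was called (adjusted p = 0.0559 and 0.0578), and without the filter on low values neither was called (adjusted p = 0.056 and 0.0643). With each sample rescaled to the same FPKM sum, Tsks missed the limit and Ppp1cc was called lower. Ppp3r2 and Ppp3cc stayed called lower whichever library was left out. By the limits of the study, an adjusted p of at most 0.001 and a log2 change of at least 1, 0 of the 10 genes were called with busulfan. Over all genes these limits called 2.54% in B0 against A0, 3.01% in BA10 against A10, 3.39% in BA50 against A50 and 3.61% for the mean. The study used them with another test, DEGseq, and reported counts for comparisons of AOS, so these counts are not comparable with its own.

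**Figure D2:**
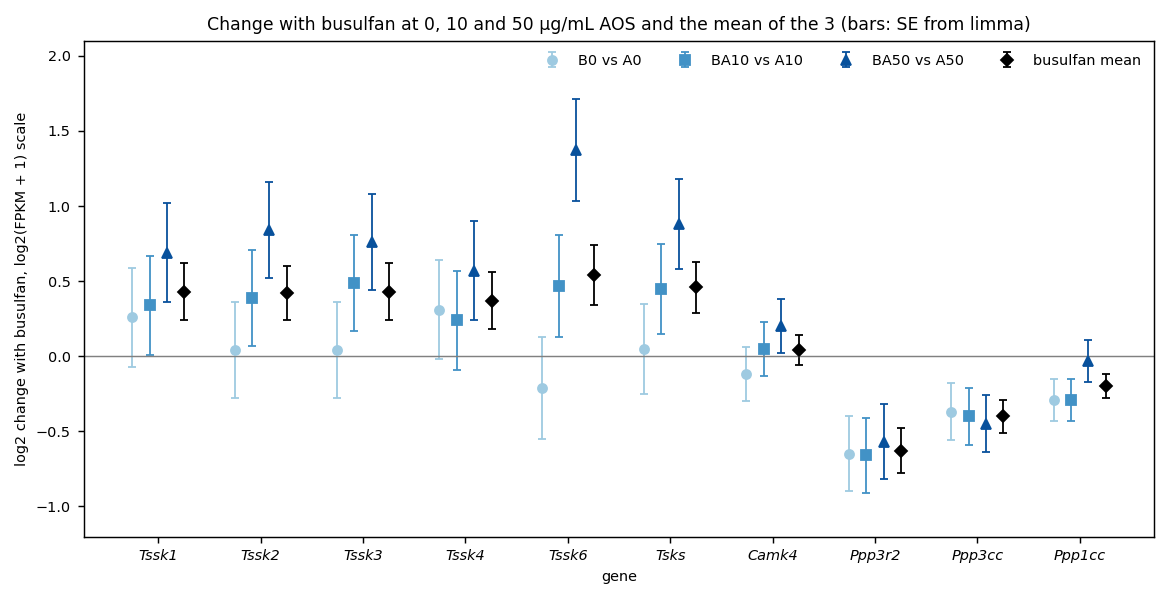
Log2 change with busulfan on the log2(FPKM + 1) scale (vertical axis) for the 10 genes (horizontal axis) in B0 against A0, BA10 against A10 and BA50 against A50, and as their mean, with the SE from limma as bars. The 6 kinase and Tsks points lie near 0 without AOS and highest at 50 μg/mL AOS, while Ppp3r2 and Ppp3cc lie below 0 at all 3 concentrations.

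Ppp3r2, the regulatory subunit of sperm calcineurin, was lower with busulfan at each AOS concentration. It was 53.6, 33.0 and 51.6 FPKM in A0 and 28.1, 38.5 and 20.9 FPKM in B0. It was 55.2, 61.0 and 86.4 FPKM in A10 and 37.9, 49.5 and 38.4 FPKM in BA10. It was 77.3, 71.0 and 77.4 FPKM in A50 and 35.7, 61.9 and 57.9 FPKM in BA50. The groups overlapped at 0 μg/mL AOS, through A0 sample 2 and B0 sample 2, and did not overlap at 10 and 50 μg/mL. At 10 μg/mL Ppp3r2 was the 1 gene of the 10 that lay lower without overlap, where 20.2% of all genes did. The log2 changes were alike at the 3 concentrations, -0.65 (SE 0.25), -0.66 (SE 0.25) and -0.57 (SE 0.25), and none was called by itself (limma adjusted p = 0.113, 0.0836 and 0.136). Leaving out A0 sample 2 or B0 sample 2 brought the comparison of B0 with A0 past the limit (adjusted p = 0.0447 to 0.0466). Each of these fits called 12% of all genes.

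Ppp3cc, its catalytic partner, followed the same course with smaller changes. It was 65.5, 45.4 and 61.6 FPKM in A0 and 43.2, 52.0 and 37.4 FPKM in B0, with overlap. It was 63.0, 63.2 and 88.1 FPKM in A10 and 48.7, 63.0 and 49.6 FPKM in BA10, where the highest BA10 sample met the lowest of A10. It was 80.7, 82.0 and 79.2 FPKM in A50 and 46.0, 70.5 and 62.8 FPKM in BA50, without overlap. The log2 changes were -0.37 (SE 0.19), -0.40 (SE 0.19) and -0.45 (SE 0.19), with limma adjusted p = 0.246, 0.156 and 0.111.

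The kinase and calcineurin genes can also be set against each other within a sample, where scaling has no part. Tssk1 over Ppp3r2 was 1.26, 1.16 and 0.827 in A0, 0.786, 0.829 and 1.14 in A10 and 0.785, 0.813 and 0.728 in A50. With busulfan it was 2.19, 1.77 and 2.21 in B0, 1.72, 2.42 and 1.47 in BA10 and 1.94, 2.1 and 1.61 in BA50. The mean was 0.925 ± 0.20 (SD, n = 9) without and 1.94 ± 0.31 (SD, n = 9) with busulfan, and the 9 samples of each kind did not overlap. This ratio was chosen after the values were seen and was not tested. In bulk tissue, fewer cells of a type and less RNA per cell cannot be told apart.

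**Figure D3:**
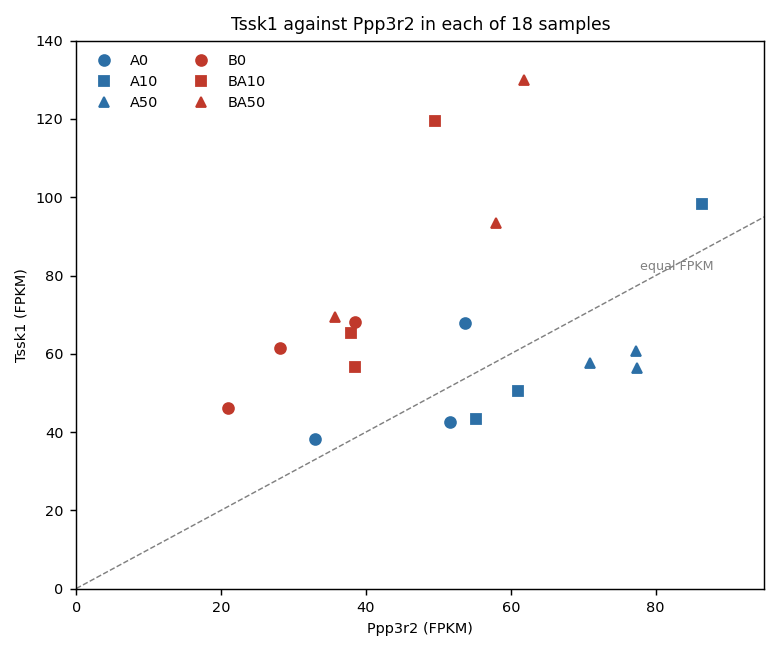
Tssk1 (vertical axis, FPKM) against Ppp3r2 (horizontal axis, FPKM), 1 point per sample, with blue for no busulfan, red for busulfan and a dashed line where both are equal. The 9 busulfan samples lie above the line at ratios of 1.47 to 2.42, and the 9 samples without busulfan lie around it at 0.728 to 1.26.

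Ppp1cc, the catalytic subunit of sperm PP1, was 318, 312 and 357 FPKM in A0 and 269, 289.7 and 249.6 FPKM in B0. B0 lay below A0 without overlap, as 22.7% of all genes did, with a log2 change of -0.29 (SE 0.14, limma adjusted p = 0.231). It was 334, 352 and 446 FPKM in A10 against 285, 359 and 278 FPKM in BA10 (log2 change -0.29, SE 0.14, adjusted p = 0.169). It was 353, 405 and 429.7 FPKM in A50 against 337, 449 and 379 FPKM in BA50, a change of -0.03 (SE 0.14, adjusted p = 0.889). The mean of the 3 was -0.20 (SE 0.08, adjusted p = 0.0624). Its transcripts share 40% of their stretches of 50 bases with copies elsewhere in the genome, among them Ppp1ccb with an identical run of 1274 bases, so reads may have been divided between them. Ppp1ccb itself was listed at 29.0 to 125.3 FPKM and had a log2 change of -0.99 in BA50 against A50 (adjusted p = 0.0727). Without A10 sample 1, BA10 sample 2 or BA50 sample 2 the busulfan mean of Ppp1cc passed the limit (adjusted p = 0.0264 to 0.0422). These fits called 38.7 to 39.7% of all genes.

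Camk4 was at the edge of what was measured, at 0.72 to 1.78 FPKM. It was 1.21, 0.83 and 0.81 FPKM in A0, 0.89, 0.75 and 0.72 FPKM in B0 and 1.02, 1.73 and 1.17 FPKM in BA50. The mean busulfan change was 0.04 (SE 0.10, limma adjusted p = 0.766), and its sign turned without BA10 sample 2, to -0.02.

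In the cultures without busulfan, Ppp3r2 and Ppp3cc had higher means with AOS, though neither passed the test. Ppp3r2 had a mean of 46.1 ± 11.4 FPKM in A0, 67.5 ± 16.6 in A10 and 75.2 ± 3.68 in A50 (SD, n = 3). Every A10 and every A50 sample lay above all of A0. Ppp3cc was 57.5 ± 10.7 FPKM in A0, 71.4 ± 14.4 in A10 and 80.6 ± 1.42 in A50 (SD, n = 3), and A50 lay above A0 without overlap. The log2 changes of Ppp3r2 were 0.55 (SE 0.25, limma adjusted p = 0.326) with 10 μg/mL and 0.73 (SE 0.25, adjusted p = 0.24) with 50 μg/mL, and that of Ppp3cc with 50 μg/mL was 0.50 (SE 0.19, adjusted p = 0.266). The other calcineurin subunits and regulators mostly had lower means, with 0 of 10 positive changes and a median of -0.23 in A10, and 2 of 10 and a median of -0.11 in A50, none of them called. Ppp3r1 was 50.2 to 56.3 FPKM in A0 and 44.9 to 45.4 FPKM in A50 (log2 change -0.24, adjusted p = 0.322). Higher means with AOS were not particular to Ppp3r2 and Ppp3cc. Of the 8 spermatocyte markers, 7 had positive changes in A10 and 8 in A50, with medians of 0.21 and 0.34. All 8 spermatid markers had positive changes in both, with medians of 0.27 and 0.23, and no marker of either list was called. Of the 10 genes, 1 lay above A0 without overlap in A10, where 7.81% of all genes did, and 2 did so in A50, where 17.6% did. The limma test called 0 of the 10 genes in A10 and in A50, as it called 0% of all genes. At an unadjusted p under 0.05 there were 1 and 2 of the 10, and 15.2% and 15.6% of all genes. The changes of the TSSK genes and Tsks ran from -0.03 to 0.33 with 10 μg/mL and from -0.33 to 0.32 with 50 μg/mL.

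After busulfan, the kinase genes had higher means with AOS, most with 50 μg/mL, but none passed the test. In BA10 against B0, 4 genes lay higher without overlap, Tssk2, Tssk3, Tssk6 and Tsks, where 3.64% of all genes did. The ratios of the means were 1.56 for Tssk2, 1.65 for Tssk3, 1.65 for Tssk6 and 1.63 for Tsks. Their log2 changes of 0.56, 0.64, 0.65 and 0.61 each had an adjusted p of 0.749 in limma, and 0 of the 10 genes were called or had an unadjusted p under 0.05. Across all genes 0.0253% were called, and 5.05% had an unadjusted p under 0.05.

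In BA50 against B0, 7 genes lay higher without overlap, Tssk1, Tssk2, Tssk3, Tssk6, Tsks, Camk4 and Ppp1cc, where 11.2% of all genes did. The rise was not particular to these genes. All 8 spermatid markers had positive changes too, with log2 medians of 0.70 in BA10 against B0 and 1.08 in BA50 against B0, none called. The medians of the TSSK genes and Tsks were 0.58 and 0.92. The ratio of the means was 2.48 for Tssk6, 2.1 for Tsks, 1.98 for Tssk3, 1.97 for Tssk2, 1.67 for Tssk1, 1.49 for Tssk4 and 1.44 for Ppp1cc. In limma, 7 of the 10 had an unadjusted p under 0.05, where 24.3% of all genes did, and 0 were called, where 0.095% were. The log2 changes were 1.24 (SE 0.34, adjusted p = 0.104) for Tssk6, 1.00 (SE 0.30, adjusted p = 0.111) for Tsks and 0.93 (SE 0.32, adjusted p = 0.124) for Tssk2. Tssk3 had 0.90 (adjusted p = 0.132), Tssk1 0.70 (adjusted p = 0.212), Tssk4 0.57 (adjusted p = 0.29) and Camk4 0.36 (adjusted p = 0.233). Ppp3r2 had 0.81 (adjusted p = 0.113), Ppp3cc 0.42 (adjusted p = 0.188) and Ppp1cc 0.52 (adjusted p = 0.104). Without BA50 sample 1, the lowest of its group for 5 of the 6 kinase and Tsks genes, Ppp1cc, Ppp3r2 and Tsks passed the limit (adjusted p = 0.0425, 0.0418 and 0.0456), in a fit that called 7.12% of all genes. B0 serves as control for both AOS concentrations, so the 2 comparisons are not independent.

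Whether AOS changed a gene more with busulfan than without was tested as a difference of differences. At 50 μg/mL Tssk6 had the largest, 1.58 on the log2 scale (SE 0.48, unadjusted p = 0.00533, limma adjusted p = 0.62), from a change of 1.24 after busulfan and -0.33 without. No gene of the table (0%) was called by limma in these tests at either concentration. At an unadjusted p under 0.05 there were 0 of the 10 genes at 10 μg/mL and 1 at 50 μg/mL, and 3.97% and 6.28% of all genes.

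Ppp3r2, Ppp3cc and Ppp1cc were also set against the widely used isoforms of the same subunit in the same sample. This frees the measure from scaling between samples. Values were given per gene, so the Ppp1cc share does not separate the gamma-2 form from other forms of that gene. Ppp3r2 as a share of Ppp3r1 + Ppp3r2 was 51.6, 36.9 and 49.0% in A0, 51.5, 53.9 and 69.5% in A10 and 63.3, 61.0 and 63.3% in A50. After busulfan it was 32.9, 38.8 and 24.1% in B0, 37.8, 47.8 and 40.3% in BA10 and 39.8, 57.4 and 54.6% in BA50. At each concentration the busulfan mean lay below its control, and within each treatment the mean went up from 0 to 10 to 50 μg/mL AOS. The share was 14.1 points lower with busulfan, as the mean difference of -14.1 points at matched AOS shows (exact two-sided permutation test within AOS concentrations, 8000 divisions, p = 0.0005, adjusted over 9 such tests p = 0.0045). It was 11.2 points higher with 10 μg/mL AOS (exact permutation test within busulfan status, 400 divisions, p = 0.02, adjusted p = 0.03) and 17.6 points higher with 50 μg/mL (p = 0.005, the smallest that the exact test can give, adjusted p = 0.015). The difference with 10 μg/mL was lost with pairing by replicate number (exact test, adjusted p = 0.0703) and without A10 sample 3, BA10 sample 2 and BA50 sample 2 together (6.96 points, adjusted p = 0.129). It was also lost without any 1 of A0 sample 2, A0 sample 3, A10 sample 3, B0 sample 3 and BA10 sample 2 (8.41 to 12 points). For the A10 and BA10 samples this was judged by the unadjusted p. Both terms differed between groups, since Ppp3r1 was 53.4 ± 3.05 FPKM in A0, 45.1 ± 0.267 in A50, 61.2 ± 4.28 in B0 and 49.4 ± 4.17 in BA50 (SD, n = 3).

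The share of Ppp1cc in Ppp1ca + Ppp1cb + Ppp1cc was 66.4, 62.3 and 67.4% in A0, 67.4, 67.2 and 76.7% in A10 and 70.7, 72.6 and 74.1% in A50. It was 58.2, 61.3 and 55.6% in B0, 59.6, 69.0 and 61.4% in BA10 and 63.3, 74.8 and 70.2% in BA50. Every B0 sample lay below every sample without busulfan, and A50 lay above all of A0. The difference was -5.73 points with busulfan (exact permutation test, p = 0.0103, adjusted p = 0.0231) and 9.09 points with 50 μg/mL AOS (p = 0.005, the smallest possible in the exact test, adjusted p = 0.015). With 10 μg/mL AOS it was 5.01 points (exact permutation test, p = 0.045, adjusted p = 0.0506), which missed the limit after adjustment.

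Ppp3cc as a share of Ppp3ca + Ppp3cb + Ppp3cc had means of 51.2 ± 5.5% in A0, 57.5 ± 6.7% in A10, 59.7 ± 0.88% in A50, 45.2 ± 5.3% in B0, 51.4 ± 3.4% in BA10 and 55.3 ± 7.3% in BA50 (SD, n = 3). The difference was -5.48 points with busulfan (exact permutation test, p = 0.036, adjusted p = 0.0463) and 9.31 points with 50 μg/mL AOS (exact permutation test, p = 0.02, adjusted p = 0.03). With 10 μg/mL AOS it was 6.25 points (exact permutation test, p = 0.07, adjusted p = 0.07). The busulfan difference of Ppp3cc was the weakest of those past the limit. Leaving out 1 library took it past 0.05 for 10 of the 18, with differences from -6.46 to -4.09 points over all 18. The adjusted p was used for A0 and B0 samples. For the others not all 9 tests were run, and the unadjusted p of the exact test was used. The 10 were A0 samples 1 and 3, A10 sample 3, A50 samples 2 and 3, B0 samples 1 and 3, BA10 samples 1 and 3 and BA50 sample 1. The difference with 50 μg/mL AOS missed the limit without B0 sample 1 or B0 sample 3 (9.22 and 8.02 points, adjusted p = 0.0675 for both). Without B0 sample 2 the differences of Ppp3cc (7.63 points, adjusted p = 0.0338) and Ppp1cc (5.74 points, adjusted p = 0.04) with 10 μg/mL AOS passed the limit in the exact test. The busulfan and the 50 μg/mL AOS differences of Ppp3r2 and of Ppp1cc held whichever library was left out, judged by the same mix of adjusted and unadjusted p. The AOS 10 and AOS 50 tests share A0 and B0, and the shares cannot tell a change in the isoform used by a cell from a change in the cells present.

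**Figure D4:**
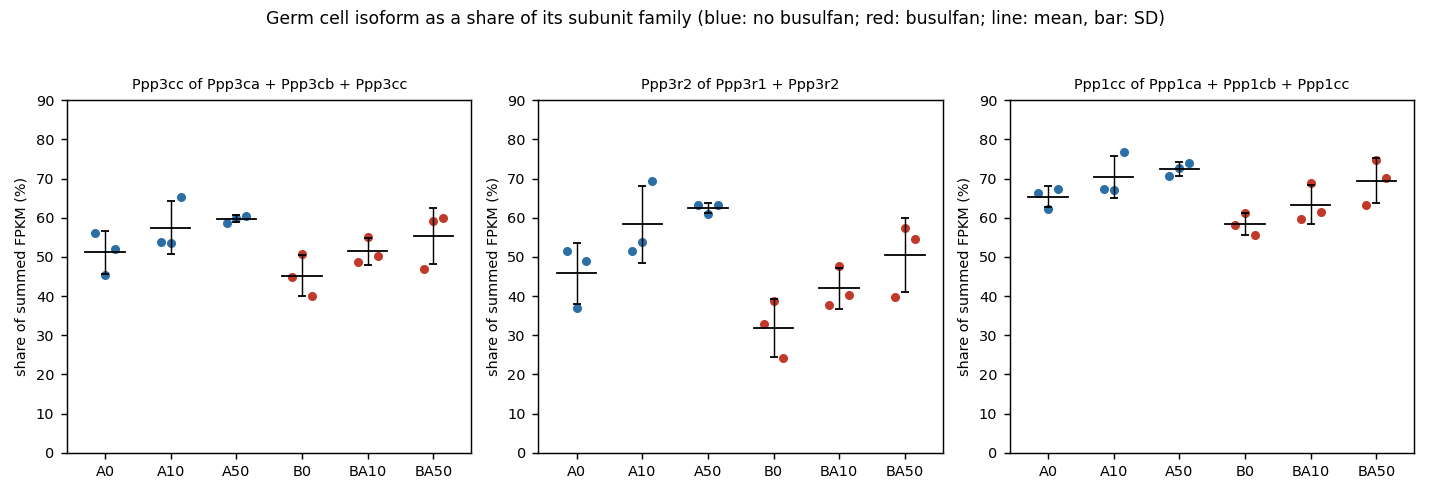
Share of Ppp3cc, Ppp3r2 and Ppp1cc, each in the summed FPKM of its subunit family (vertical axis, %, from 0), in the 6 groups (horizontal axis), with 1 point per sample, a line at the mean and a bar for the SD (n = 3). In each panel B0 is lowest, and the means go up with AOS in blue (no busulfan) and in red (busulfan).

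The list of TSSK regulators held 4 genes, all tested. Hsp90aa1, a chaperone on which TSSK proteins depend, was the 1 that was called, lower with busulfan at each concentration, with a mean log2 change of -0.70 (limma adjusted p = 3.67e-07). For the mean, 1 of 4 called lower is near the background of 24.8% of all genes. Hsp90aa1 was 511 to 569.9 FPKM in A0 and 329 to 394 FPKM in B0. Tsacc, the co-chaperone that activates TSSK6, was 102.5 ± 18.6 FPKM in A0, 87.8 ± 22.1 in B0 and 148 ± 28.0 in BA50 (SD, n = 3), with a busulfan change of -0.16 (adjusted p = 0.466). Tssk5 and Pdpk1, whose kinase can act on TSSK3, had mean busulfan changes of 0.22 and 0.03 (adjusted p = 0.402 and 0.898).

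In the list of calmodulin genes, calcium-calmodulin kinases and the transcription factor genes Crem and Creb1, 9 of 13 genes were tested. The mean busulfan change was called for 4 of the 9, 2 higher and 2 lower, near the background of 38.1% of all genes. Calm2 and Calm3, which code for calmodulin, the calcium sensor of CAMK4 and calcineurin, were lower, at -0.70 and -0.32 on the log2 scale (limma adjusted p = 3.62e-07 and 0.000104). Calm2 was 307.5, 285.5 and 323 FPKM in A0 and 193, 217 and 213 FPKM in B0. Camk1 and Camk2d, kinases used outside the germ line too, were higher at 0.45 and 0.27 (adjusted p = 0.0166 and 0.0322). Crem, named after its values were seen, was 30.4 ± 5.98 FPKM in A0, 28.6 ± 6.80 in B0 and 39.8 ± 9.87 in BA50 (SD, n = 3), with a mean busulfan change of -0.19 (adjusted p = 0.32), and that of Creb1 was -0.01 (adjusted p = 0.953). The list median was -0.01, against 0.01 over all genes tested.

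Of the calcineurin list, 10 of 12 genes were tested. With busulfan Ppp3r1 was called higher (mean log2 change 0.20, limma adjusted p = 0.0232) and Ppp3cb lower (-0.18, adjusted p = 0.0461), and the list median was 0.01. In the PP1 list of 10 genes, 2 were called higher, Ppp1ca at 0.22 (adjusted p = 0.0374) and Ppp1r14b, an inhibitor, at 0.23 (adjusted p = 0.0129). Of the others, 3 regulators were called lower, Ppp1r2 (inhibitor-2) at -0.17 (adjusted p = 0.00749), Ppp1r36 at -0.60 (adjusted p = 0.00585) and Ppp1r42 at -0.53 (adjusted p = 0.0153). Over all genes 13.3% were called higher and 24.8% lower, beside 1 and 1 of the 10 calcineurin genes and 2 and 3 of the 10 PP1 genes, and nothing particular to either list is read from these counts. In BA50 against A50, Ppp1r10, which holds PP1 in the nucleus, was called higher at 1.87 (adjusted p = 0.0139), with 3.35 to 3.95 FPKM in A50 and 14.3 to 18.3 FPKM in BA50, though other groups ranged from 4.37 to 19.3 FPKM. No gene of the 4 lists was called for AOS, with or without busulfan, where 0 to 0.095% of all genes were.

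Within groups, the TSSK genes and Tsks went up and down together. Taken as deviations from the group mean of log2(FPKM + 1) over 18 samples, the 15 pairs among the 6 genes had Pearson's r from 0.65 to 0.98 with a median of 0.88. Their pairs with Ppp3r2, Ppp3cc and Ppp1cc had a median of 0.76, and the 3 pairs among Ppp3r2, Ppp3cc and Ppp1cc had r from 0.75 to 0.97. Camk4 with the 6 genes had a median of 0.90. These are descriptions over samples that share a library and a scaling within each point, and they carry no test. The mean deviation of the 6 was highest in A10 sample 3 (0.66), BA10 sample 2 (0.59), A0 sample 1 (0.48) and BA50 sample 2 (0.42), and lowest in A10 sample 1 (-0.53) and BA10 sample 3 (-0.40). The spread within groups was correspondingly wide, with an SD of 0.40 to 0.45 on the log2 scale for the 6 genes, 0.33 for Ppp3r2, 0.24 for Ppp3cc and 0.17 for Ppp1cc, against a median of 0.21 over all genes tested.

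**Figure D5:**
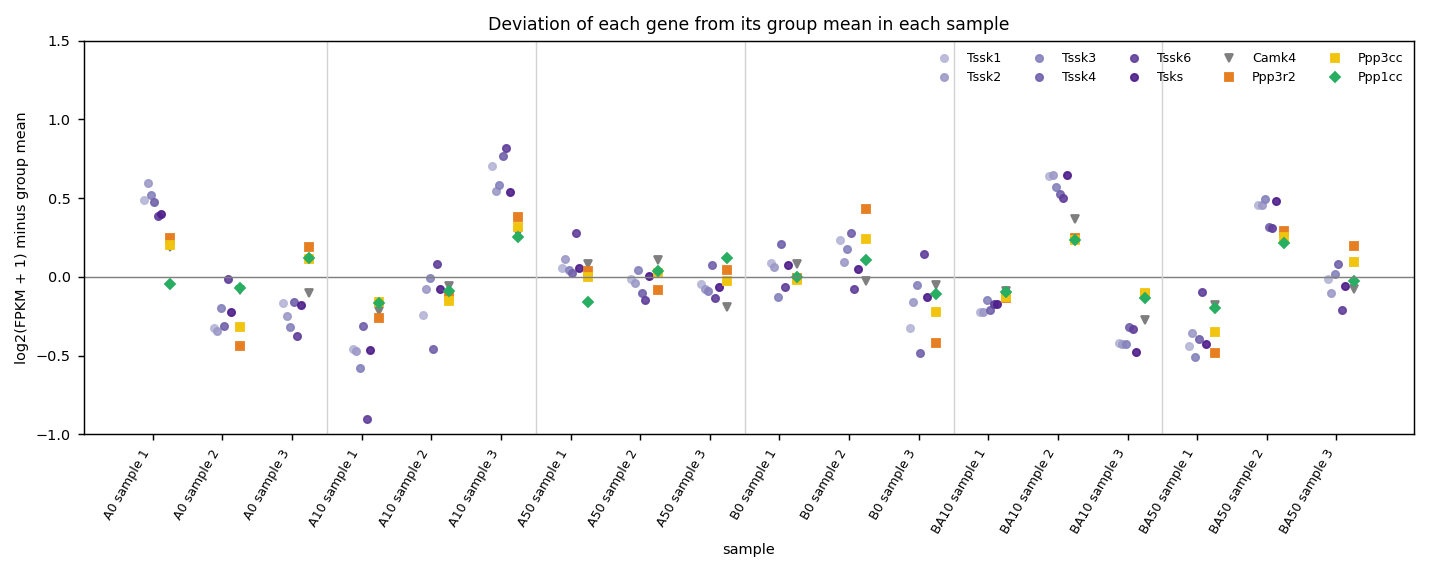
Deviation of each of the 10 genes from its group mean (vertical axis, log2(FPKM + 1)) in each of the 18 samples (horizontal axis, grouped by treatment). The purple points of the TSSK genes and Tsks cluster within most samples, high in A10 sample 3, BA10 sample 2, A0 sample 1 and BA50 sample 2.

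The markers of spermatids moved with these deviations. The mean deviation of the 8 spermatid markers had r = 0.93 with that of the 6 genes over 18 samples, the 8 spermatocyte markers 0.48, the 7 Sertoli cell markers that were tested -0.20 and the 3 macrophage markers -0.68. For the other markers r was -0.46 (spermatogonia), -0.48 (Leydig cells), 0.17 (peritubular myoid cells), 0.23 (fat cells) and 0.40 (simple epithelium). For the pathway lists it was 0.95 (TSSK regulators), 0.76 (PP1), -0.55 (calmodulin, its kinases, Crem and Creb1) and -0.81 (calcineurin). The summed level of the spermatid markers was 2502 to 4443 FPKM in A0, 2369 to 3494 FPKM in B0, 2459 to 5036 FPKM in A10, 3894 to 6861 FPKM in BA10, 3282 to 4220 FPKM in A50 and 5153 to 11170 FPKM in BA50. All 8 spermatid markers had positive changes in BA50 against A50, with a median of 0.90 on the log2 scale, near the 0.80 of the TSSK genes and Tsks, and none was called. In B0 against A0 their median was -0.08. A10 sample 3 was also low in Sertoli cell markers, whose sum was 1101 FPKM there and 2478 to 2812 FPKM in the other A10 samples. The part of cell make-up in the TSSK values was not tested.

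The 10 genes outside the group whose deviations were most like the mean of the 6 were Dnajc5b (r = 0.992), Cep112 (0.992), Spata48 (0.990), Aif1 (0.990), Tbc1d21 (0.989), Capza3 (0.988), Tmco5 (0.987), St6galnac2 (0.986), Aqp7 (0.986) and Ms4a5 (0.986). They were picked by Pearson's r over 18 samples from 10149 genes with a mean of at least 5 FPKM, and they carry no test. Several are known from spermatids or sperm, such as Capza3, an actin-capping subunit, and Aqp7, a water and glycerol channel. Dnajc5b was 57.9, 49.8 and 53.9 FPKM in A50 and 61.9, 104.8 and 77.8 FPKM in BA50, which like Tssk1 did not overlap.

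Leaving out A10 sample 3, BA10 sample 2 and BA50 sample 2 together, an alternative added after the data had been seen, kept the call of Tssk6 in BA50 against A50 and added those of Tsks and Ppp3cc. That fit called 29.6% of all genes, so 3 of 10 is at the background. In that fit the busulfan mean of Camk4 was -0.01.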

How the data were processed

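Values of 18 cultured testis samples in 6 groups of 3 were used, with groups and replicate numbers taken from the sample labels. The authors made poly(A) libraries, read them on a HiSeq sequencer and deposited 1 FPKM value per gene and sample, per the file headers. Their supplementary methods describe alignment to reference genes with SOAPaligner and call the unit RPKM, while the submitters' processing notes name HISAT, Bowtie2, RSEM and the build GRCm38.p5. Which of these made the deposited FPKM values, and whether counting used the strand, is not given in the sources used here. The AOS unit follows the labels (μg/mL), while the series' design text gives doses per body weight. FPKM values were not whole multiples of a read's worth (20.4% of 589 ratios between samples, in 95 genes, were within 0.1 of whole, where 20% would be by chance), so read depth is unknown and precision was judged from replicates.

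Symbols were matched to the NCBI gene numbers for 20656 of 20811 numbered genes. Tests used limma 3.58.1 in R 4.3.3 (lmFit, eBayes with trend) on log2(FPKM + 1), with genes of at least 1 FPKM in at least 3 samples, 12 residual and 2.56 prior degrees of freedom, Benjamini-Hochberg adjustment over all 15790 genes and calls at adjusted p under 0.05. A fold change on this scale understates changes of low genes. Shares of isoforms were tested with exact stratified permutation tests. Both scripts were tested on simulated data. Other steps ran in Python 3.11.15 with SciPy 1.17.1, NumPy 2.4.6 and pandas 2.3.3, and figures in matplotlib 3.10.9.

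The members and all gene lists were chosen with earlier results of these data known. Named were the 10 members, list genes called in at least 1 comparison, the isoforms in the shares, and the 10 genes most like the TSSK mean. Tssk5, Tsacc, Pdpk1, Crem, Creb1, Ndufa13, Grin3a and Ppp1ccb were named in addition after their values were seen. Lists were TSSK regulators (Tssk5, Tsacc, Hsp90aa1, Pdpk1), calmodulin and calcium-calmodulin kinase genes with Crem and Creb1 (1 gene of this list is not reported here), calcineurin genes, PP1 genes, and markers of spermatids, spermatocytes, spermatogonia, Sertoli, Leydig, peritubular myoid, macrophage, fat and simple epithelium cells. Deviations of same-numbered samples correlated at 0.14 to 0.56 in BA50 and B0, every pair over 0.1, and below that for at least 1 pair in the other comparisons, and the sources do not say what a number shares. Alternatives were a fit with the replicate number as a block, a fit of just the groups in question, 0.1 FPKM as pseudocount, no filter or a strict one (mean of at least 5 FPKM), TPM scaling, median centring, quantile normalization, no trend, each sample left out, and the study's limits (adjusted p of at most 0.001 and a log2 change of at least 1).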

Additional observations from a re-analysis of the deposited data

How the results depend on the processing

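Of 1828 alternative values of the members' log2 changes over the 10 comparisons, 1678 kept their sign and their side of the limit, 30 came to pass the limit, 32 no longer passed it and 88 changed sign, 0 of these while called. In BA50 against A50, where 1 member was called, 3 were called with only the groups compared (Tsks, Tssk2, Tssk6; 19.1% of all genes called), 2 with the strict filter (Tsks, Tssk6; 22.1%), 2 with TPM scaling (Ppp3cc, Tssk6; 19.7%), 3 with quantile normalization (Ppp3cc, Tsks, Tssk6; 20.4%), 3 without A10 sample 3, BA10 sample 2 and BA50 sample 2 (the same 3; 29.6%), and 0 by the study's limits (3.39%). Leaving out each sample gave 1 to 2, where 14.5 to 19.3% of all genes were called. For the busulfan mean, where 4 were called, the replicate block left 2 (36.9% of all genes called) and no filter left 2 (28.9%), Ppp3cc and Ppp3r2 both times. Quantile normalization gave 7 (with Ppp1cc, Tssk1 and Tssk3 added; 45% of all genes) and the study's limits gave 0 (3.61%). Leaving out each sample gave 2 to 8, where 33.6 to 40.7% of all genes were called, with 8 without A10 sample 3 (40.7%). Leaving out a sample gave 0 to 1 in B0 against A0, where 9.17 to 12% of all genes were called. In BA50 against B0 it gave 0 to 3, with 3 without BA50 sample 1 (7.12% of all genes called). The change of Ppp1cc in BA50 against A50 ran from -0.14 to 0.06, and the busulfan mean of Camk4 from -0.02 to 0.09, and -0.01 without the 3 samples named. The replicate block on the members' calls moved no other count of calls. Pairing by replicate number, the Ppp3cc share differed by -5.48 points with busulfan (exact p = 0.0703, past the limit no longer), the Ppp3r2 share by 11.2 points with 10 μg/mL AOS (exact p = 0.0625, likewise) and the Ppp1cc share by 5.01 points (exact p = 0.0312, adjusted p = 0.0469, now past it). The 3 samples left out together were chosen after the data had been seen. Without the 3 samples, the Ppp3cc share differed by 8.36 points with 50 μg/mL AOS (adjusted exact p = 0.06) and the Ppp3r2 share by 6.96 points with 10 μg/mL (exact p = 0.1), both no longer past it. Leaving out each sample, the Ppp3cc share differed by -6.46 to -4.09 points with busulfan, 4.33 to 7.63 with 10 μg/mL and 7.85 to 11.4 with 50 μg/mL AOS. The Ppp3r2 share differed by 8.41 to 12.9 and the Ppp1cc share by 3.44 to 5.96 points with 10 μg/mL. The cause of these changes was not tested. A fit of only the groups compared was not run for the busulfan mean, which needs all 18 samples. Read depth is unknown, so it set no limit here.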
